A study of Mus musculus with 9 samples.

Results

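The samples described are the 3 control cultures of a knockdown study in L8057 cells, a mouse line of leukaemic megakaryocyte precursors. They make up 3 of the 9 arrays of the series. The other 6 arrays, of cells with a knockdown of CBFb or Ring1b, were used only for an alternative scaling. The control cells had been infected with a lentivirus, which the sample labels call an empty vector, whereas the series text can be read as giving the control an shRNA as well. From 48 h after infection they were kept in puromycin, which kills uninfected cells, and in 50 nM of the phorbol ester TPA (12-O-tetradecanoylphorbol-13-acetate), and RNA was taken 72 h later. This gave 3 days of exposure to an agent that drives these cells towards maturation. Every one of the 9 cultures had TPA, puromycin and virus, so no level described here can be tied to any of these 3 treatments. The series text speaks of biological triplicates without saying how far the cultures were kept apart, so the spread given may be partly technical, and 3 arrays limit its precision.

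Megakaryocytes are large bone marrow cells that shed platelets. As they mature they switch on platelet adhesion receptors, fill alpha granules with chemokines, growth factors and clotting proteins and dense granules with small molecules, and copy their DNA without dividing. The transcription factors GATA1, FLI1, RUNX1, TAL1 and NFE2 drive this programme, and red cell precursors share several of them. RUNX1 binds DNA together with CBFb, the subunit without DNA contacts that the study knocked down, and Ring1b (gene Rnf2) is the enzyme of Polycomb repressive complex 1 (PRC1) that adds ubiquitin to histone H2A.

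Values are array signals on a log2 scale as the authors deposited them, each given as the mean ± SD over the 3 control arrays (n = 3). Each of 18193 genes was represented by the probe set with the highest mean among those assigned to that gene alone, and genes were ranked by that mean. A percentile is the position of a gene among all 18193. Probe sets differ in how strongly they bind, so a rank is of signal and not of transcript amount. A floor limit of 7.39 was taken as the 95th percentile of 142 genes of families that blood cells are not known to use: olfactory, vomeronasal, taste and trace amine receptors, hair keratin-associated proteins, lens gamma crystallins and beta defensins. These families had a median of 5.34, and 8 of the 142 genes lay above the limit. A gene is called above the limit when all 3 arrays exceeded it, near the floor when its mean did not, and at the limit otherwise. "High" means the top 10% of genes, which began at 10.77.

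By these rules 8809 genes (48.4%) were above the limit, 9110 (50.1%) were near the floor and 274 were at the limit. The arrays ranked the genes almost alike, with Spearman's rho of 0.997 for each pair of arrays over all genes, which are not independent replicates. The median SD over the arrays was 0.0839 for genes above the limit. The limit computed on each array alone was 7.48, 7.42 and 7.40. Of the 5726 genes above the limit that had several probe sets, 2039 had every probe set above it, so a gene called above often had another probe set that was not.

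**Figure D1:**
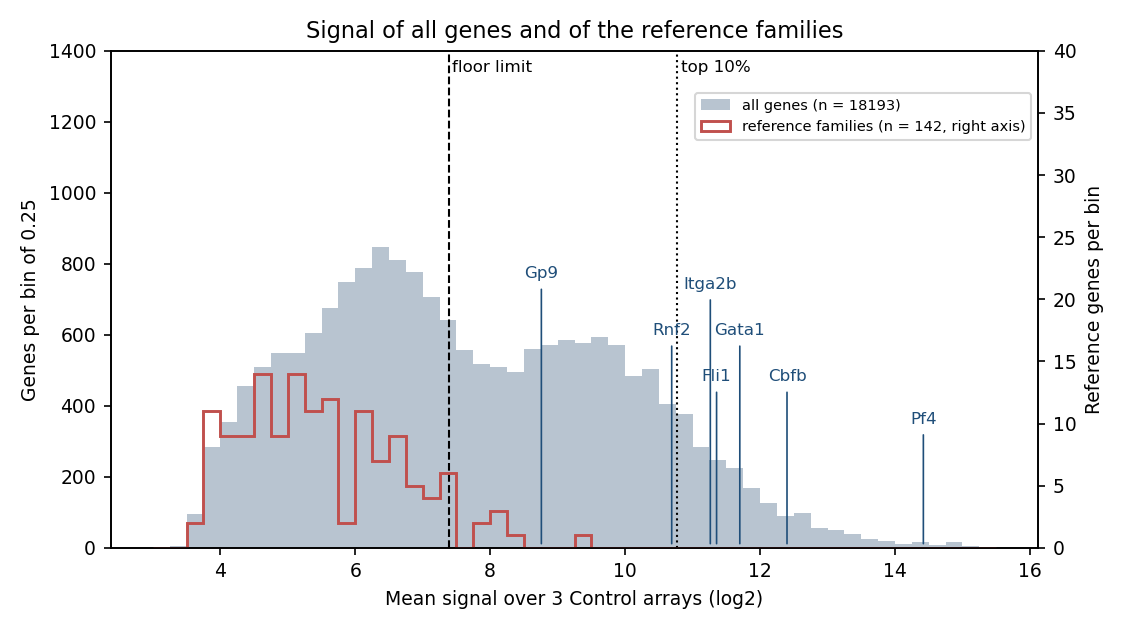
Histogram of the mean signal (log2, horizontal axis) of all 18193 genes in grey and of the 142 genes of the reference families in red on the right axis, with the floor limit at 7.39 dashed and the start of the top 10% at 10.77 dotted. Vertical lines mark 7 marker genes, of which Gp9 lies between the lines at 8.76 and Pf4 far to the right at 14.42.

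All 5 genes set down as markers of the megakaryocytic label were above the limit. Pf4, which encodes the alpha granule chemokine platelet factor 4, had 14.56, 14.41 and 14.29 on arrays 1 to 3. Its mean of 14.42 ± 0.14 was rank 33 of all genes, and no other gene of the 4 platelet lists used here was higher. Itga2b encodes integrin alpha-IIb, the platelet fibrinogen receptor chain also known as CD41, and had 11.58, 11.54 and 10.67. Arrays 1 and 2 nearly coincided and array 3 was lower, which gave 11.26 ± 0.51 at percentile 93.6. Gp9, a part of the receptor for von Willebrand factor, had 9.02, 9.02 and 8.23, with an identical deposited value on arrays 1 and 2. Array 3 was again the low array, and the mean of 8.76 ± 0.46 was at percentile 66.3. Array 3 alone lay under a stricter limit of 8.32, the 99th percentile of the reference families. The transcription factors varied less. Gata1 had 11.73, 11.74 and 11.63, at percentile 95.8, and Fli1 had 11.26, 11.41 and 11.39, at percentile 94.0.

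The 2 genes that the study targeted in its other cultures were also well above the limit in the control. Cbfb had 12.26, 12.41 and 12.53, a mean of 12.40 ± 0.14 at percentile 97.97 from its only probe set. Rnf2 had 10.54, 10.77 and 10.76, a mean of 10.69 ± 0.13 at percentile 89.3, just outside the top 10%. Its 5 probe sets did not read alike: a further probe set had a mean of 10.47, and the other 3 had means of 7.38, 7.26 and 6.83, below the limit. The knockdowns are not analysed here.

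The start sites of 4 of these markers are shown because they differ in CG dinucleotides, the sites of DNA methylation in mammals. Each line gives 250 bases upstream of the RefSeq start site in mouse build GRCm38.p6, 5′ to 3′ on the strand of the gene, with each CG in capitals. The stretches lie at chr5:90772185-90772434 on the plus strand for Pf4, chr11:102469884-102470133 on the minus strand for Itga2b, chr8:105170424-105170673 on the plus strand for Cbfb and chr1:151500992-151501241 on the minus strand for Rnf2.
Pf4: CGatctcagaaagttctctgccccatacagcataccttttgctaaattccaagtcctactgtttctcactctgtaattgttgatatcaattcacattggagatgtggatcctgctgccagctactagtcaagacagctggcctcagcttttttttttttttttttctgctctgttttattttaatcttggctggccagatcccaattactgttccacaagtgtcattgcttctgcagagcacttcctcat
Itga2b: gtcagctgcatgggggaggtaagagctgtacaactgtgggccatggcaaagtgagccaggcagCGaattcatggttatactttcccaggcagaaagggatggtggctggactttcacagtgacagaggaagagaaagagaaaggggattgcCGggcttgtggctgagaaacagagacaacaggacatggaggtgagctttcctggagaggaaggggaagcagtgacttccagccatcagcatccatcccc
Cbfb: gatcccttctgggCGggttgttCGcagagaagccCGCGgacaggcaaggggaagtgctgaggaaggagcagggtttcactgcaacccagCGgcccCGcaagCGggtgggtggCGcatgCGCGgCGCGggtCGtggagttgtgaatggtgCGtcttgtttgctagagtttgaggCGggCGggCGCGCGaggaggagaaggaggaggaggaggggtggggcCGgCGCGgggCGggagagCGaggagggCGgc
Rnf2: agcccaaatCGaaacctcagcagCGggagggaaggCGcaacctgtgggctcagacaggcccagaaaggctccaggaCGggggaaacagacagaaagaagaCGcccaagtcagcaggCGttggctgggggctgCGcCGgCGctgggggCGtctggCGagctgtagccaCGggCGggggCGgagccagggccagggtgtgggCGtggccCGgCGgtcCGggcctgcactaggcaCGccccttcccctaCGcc
The stretch of Pf4 holds 1 CG and that of Itga2b 2, against 25 for Cbfb and 20 for Rnf2.

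Over the RefSeq windows of 300 bases, from 250 before to 50 after the start, the CG count divided by that expected from base composition was 0.217 for Pf4, 0.266 for Itga2b, 0.124 for Gp9 and 0.167 for Gata1. It was 0.987 for Cbfb and 0.761 for Rnf2. Fli1 was not matched to a window. Windows were matched for 14368 of the genes, and the median ratio was 0.413 near the floor, 0.769 above the limit but not high, and 0.841 in high genes. The ratio reached 0.6 in 34.5%, 71.9% and 81.4% of windows in these bands. Of the high genes of the 4 platelet lists (receptors, alpha granule, dense granule, signalling), 11 of the 24 with a window were below 0.6 in every window (45.8%), against 177 of all 1507 high genes with a window (11.7%). The 11 were Fermt3, Pf4, Ctla2a, Itga2b, Vamp8, Lat, Srgn, Gfi1b, Lamp2, Zyx and Vasp. Low ratios were not particular to platelet genes: whatever the signal, the ratio reached 0.6 in 5.56% of windows in the erythroid list described below, 0% in the neutrophil, monocyte and T cell lists and 17.1% in the granzyme and cathepsin list. These shares are descriptions without a test.

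Among the receptors of megakaryocytes and platelets, 20 of 32 measured genes were above the limit (62.5%, against 48.4% of all genes) and 4 were high (12.5%, against 10.004%), with a median of 8.37 against 7.38 over all genes. Under the stricter limit of 8.32, 13 were above. The strongest was F2r, the thrombin receptor PAR1. Its arrays read 13.89, 13.87 and 13.95, at percentile 99.7, and both of its probe sets were high. Both are of a kind that can bind several transcripts, and without that kind F2r had no value. Ptger3, a prostaglandin E2 receptor, had 12.26, 12.33 and 12.23. This high value came from 1 of 2 probe sets, since the other had a mean of 7.04. Itga6, a laminin receptor chain, had 11.70, 11.90 and 11.63, and Itga2b, described above, completed the high group.

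A middle group of receptors lay between the limit and the top 10%. The collagen receptor chain Itgb1 (10.47), the calcium channel gene Orai1 (10.35), the adhesion receptor Pear1 (10.17) and the calcium sensor of Orai1, Stim1 (10.08), led it. Of the 6 probe sets of Itgb1, 3 were near the floor, as was 1 of Orai1 (7.02) and 1 of Pear1 (5.98). Clec1b, the podoplanin receptor CLEC-2, had 9.57, 9.61 and 8.87, and the ATP-gated channel P2rx1 had 8.64, 8.63 and 7.74. In both genes array 3 was the low array, as in Itga2b and Gp9. The ADP receptor P2ry1 (9.21) and the thromboxane receptor Tbxa2r (8.45) were steadier, with SDs of 0.10 and 0.13. Against the stricter limit of 8.32, P2rx1 fell below on array 3 and Tbxa2r, narrowly, on array 2. F2rl2, which encodes the thrombin receptor PAR3, had 9.33, 9.19 and 8.89 from 1 of 2 probe sets, the other having a mean of 3.98. The remaining parts of the von Willebrand receptor that were measured, Gp5 (7.83 ± 0.16) and Gp1bb (7.68 ± 0.08), cleared the limit narrowly and lay under the stricter one. The value of Gp1bb came from 1 of 2 probe sets, the other having a mean of 4.85. Gp1ba was not analysed here.

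The partner of Itga2b was among the 11 receptors near the floor. Itgb3, which encodes integrin beta-3, had 6.92, 6.76 and 6.86 from its higher probe set and a mean of 6.67 from the other. All 6 readings were below the limit. The collagen receptor Gp6 (6.30) and its signalling chain Fcer1g (6.59) lay in the same range, as did the thrombin receptor F2rl3, which encodes PAR4, at 6.58. The tetraspanin Cd9 (5.92) and the ADP receptor P2ry12 (5.02 ± 0.03), the target of antiplatelet drugs, were near the floor too.

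**Figure D2:**
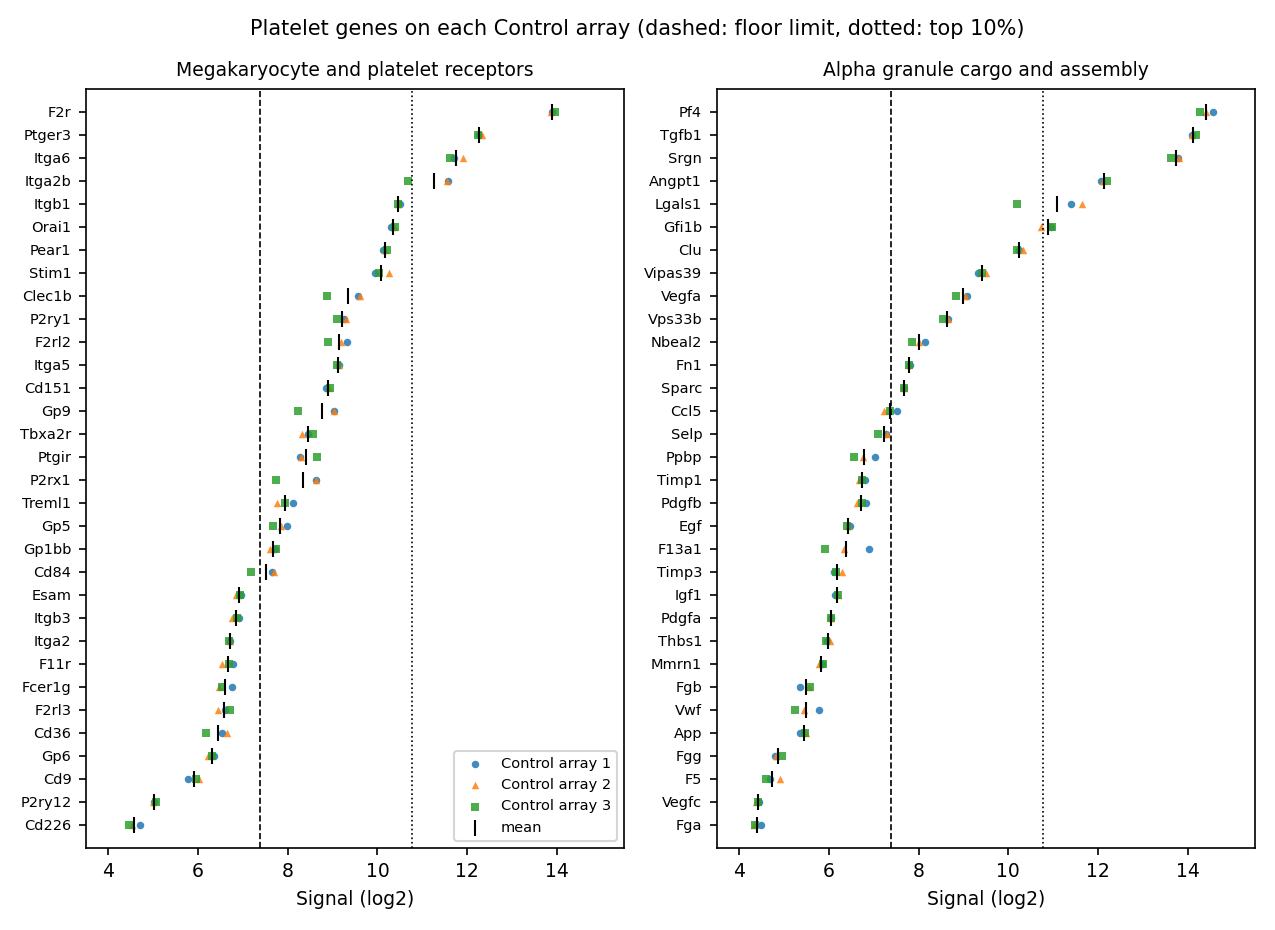
Signal (log2) on each of the 3 control arrays for the 32 receptor genes (left) and the 32 alpha granule genes (right), ordered by mean, with a black bar at the mean, the floor limit dashed at 7.39 and the start of the top 10% dotted at 10.77. Of the receptors 20 lie above the limit, led by F2r at 13.90. Of the alpha granule genes 13 lie above it, led by Pf4, and 19 lie near the floor.

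The alpha granule genes ranged from high to near the floor. Of 32 measured, 13 were above the limit (40.6%, below the 48.4% of all genes). High genes numbered 6 (18.8%, against 10.004%), and the median was 6.76. Beside Pf4, the high genes were Tgfb1, Srgn, Angpt1, Lgals1 and Gfi1b. Tgfb1, which encodes the cytokine TGF-beta 1 that platelets store, had 14.10, 14.11 and 14.19. Srgn, whose product serglycin is the proteoglycan that holds granule cargo, had 13.79, 13.82 and 13.64. These readings were tight on all arrays. The vessel growth factor gene Angpt1 followed at 12.13 ± 0.07, and Gfi1b, a transcription repressor needed for alpha granules, at 10.89 ± 0.14. Lgals1, which encodes galectin 1, had 11.39, 11.64 and 10.20, so that array 3 alone lay below the top 10%.

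The genes for alpha granule assembly were above the limit: Vipas39 (9.42), Vps33b (8.63) and Nbeal2 (8.14, 8.01 and 7.86), which are mutated in human granule deficiencies. Nbeal2 lay under the stricter limit of 8.32. Of the further cargo, clusterin (Clu) had 10.25 ± 0.07 and Vegfa 8.98 ± 0.14. Much of the classical cargo was near the floor. Vwf had 5.79, 5.45 and 5.25, all below the limit. The chemokine gene Ppbp, which lies in the same cluster as Pf4, had 7.04, 6.76 and 6.56, all below the limit while Pf4 was at percentile 99.8. Thbs1 had 5.96, 6.03 and 5.93 from the higher of 2 probe sets. P-selectin (Selp, 7.23), the A chain of factor XIII (F13a1, 6.38), multimerin 1 (Mmrn1, 5.83) and factor V (F5, 4.74) were near the floor too, as were the 3 fibrinogen chains Fga (4.40), Fgb (5.50) and Fgg (4.86). Fibrinogen of platelets is taken up from plasma.

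Genes for dense granules and for secretion were mostly above the limit, 20 of 24 (83.3%, against 48.4% of all genes). High genes numbered 6 (25%, against 10.004%), and the median was 9.80. The granule membrane proteins Lamp1 (13.44 ± 0.03) and Lamp2 (11.77 ± 0.14) and the small GTPase gene Rab38 (12.81 ± 0.09), which acts in the making of lysosome-related organelles, were high. So were the fusion proteins Vamp3 (11.77) and Vamp8 (11.10) and the adaptor Ap3b1 (10.90). Rab27b, a GTPase for dense granule secretion, had 10.35, 10.72 and 9.78, the widest range of the list. The transporters that load serotonin (Slc18a2, 9.82 ± 0.15) and nucleotides (Abcc4, 9.72 ± 0.13) were above the limit. Slc35d3, needed for dense granules in mice, had 3.94, 3.94 and 3.92, near the floor. Array 2 was the highest in 16 of the 20 genes above the limit (80.0%, against 48.8% of all genes above it). After quantile normalization array 2 was the highest in 14 of 20 (70%, against 31.7%).

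Platelet signalling and cytoskeleton genes had the largest share of high genes among the 4 platelet lists, 13 of 36 (36.1%, against 10.004% of all genes). Genes above the limit numbered 24 (66.7%, against 48.4%), and the median was 9.64. The integrin activation machinery was strong: kindlin-3 (Fermt3) had 13.50 ± 0.08, the GTPase Rap1b 12.89 ± 0.08, talin (Tln1) 12.41 ± 0.01 and the Rap1 exchange factor Rasgrp2 11.004 ± 0.06. The adaptor Lat, which acts below collagen receptors, had 12.31, 12.22 and 12.17. Pleckstrin (Plek) had 10.77 ± 0.28, just short of the top 10%. Non-muscle myosin heavy chains were represented by Myh9 (11.93 ± 0.04) and Myh10 (11.56 ± 0.04). Vinculin (Vcl, 11.55 ± 0.11) was high and filamin A (Flna, 9.83 ± 0.07) above the limit. Of the 10 genes near the floor, the platelet beta-tubulin gene Tubb1 had 6.10, 5.83 and 5.89 and the myosin light chain gene Myl9 had 4.96 ± 0.08. The kinase gene Syk, which carries collagen receptor signals, was near the floor with 4 probe sets, the highest at 6.93.

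Of the transcription factors of the megakaryocyte and red cell branch, 27 of 34 were above the limit (79.4%, against 48.4% of all genes). High genes numbered 13 (38.2%, against 10.004%), and the median was 9.60 against 7.38 over all genes. Myb, a factor of dividing progenitors that declines as megakaryocytes mature, had 12.73, 12.75 and 12.86, at percentile 98.7. The members of the TAL1 complex were all above the limit and all but Ldb1 and Tcf3 were high: Lmo2 (12.66 ± 0.12), Gata2 (12.17 ± 0.09), Tal1 (11.92 ± 0.06), Gata1 (11.70 ± 0.06), Ldb1 (10.52 ± 0.08) and Tcf3 (9.60 ± 0.06). Zfpm1, which encodes the GATA1 partner FOG1, had 11.89 ± 0.09. Among ETS factors Elf1 (11.41), Fli1 (11.36) and Etv6 (10.98) were high, Gabpa was above the limit at 9.57 and Ets1 was near the floor on all 4 probe sets. Klf1, a factor of red cells, had 10.95 ± 0.08, so factors of both branches were high in the same RNA.

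Runx1 had 10.36, 10.44 and 10.45, a mean at percentile 86.7, and all 6 of its probe sets were above the limit. Runx3 had 8.76 ± 0.13, and Runx2 was not analysed here. The ETO family members Cbfa2t3 (9.93 ± 0.21) and Cbfa2t2 (9.81 ± 0.09), corepressors that bind TAL1 or RUNX complexes, were above the limit. Runx1t1, the third of them, was near the floor on all 6 probe sets, with a highest mean of 4.65 ± 0.20. Nfe2, the factor of platelet release, had 5.32, 5.37 and 5.34 from its only probe set, below the limit. Its small Maf partners Mafg (9.43 ± 0.18) and Mafk (9.30 ± 0.04) were above the limit. Meis1 (6.76) and Mecom (6.19), factors of stem cells and early megakaryocytes, were near the floor on 3 probe sets each, and Erg was at the limit (7.43).

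Factors of other blood lineages were mostly near the floor, 24 of 33, where 50.1% of all genes were. Those above the limit numbered 9 (27.3%, against 48.4% of all genes), and the median was 6.07. Spi1, which encodes the myeloid factor PU.1, had 7.19, 7.16 and 7.16, just under the limit and steady across arrays. A limit of 7.14, taken from olfactory receptors alone, would place it above. Cebpa (5.98), Cebpb (5.80) and Irf8 (6.18) of the myeloid branch were near the floor. So were Gata3 (4.67), Ebf1 (5.64) and Tbx21 (4.89) of the lymphoid branch. Xbp1, which acts in the secretory stress response as well as in plasma cells, was the only high gene of the list, with 11.62, 12.12 and 11.89. Ikzf2 (10.58 ± 0.23), Ikzf1 (10.11 ± 0.12) and Bcl11a (9.78 ± 0.06) were also above the limit.

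**Figure D3:**
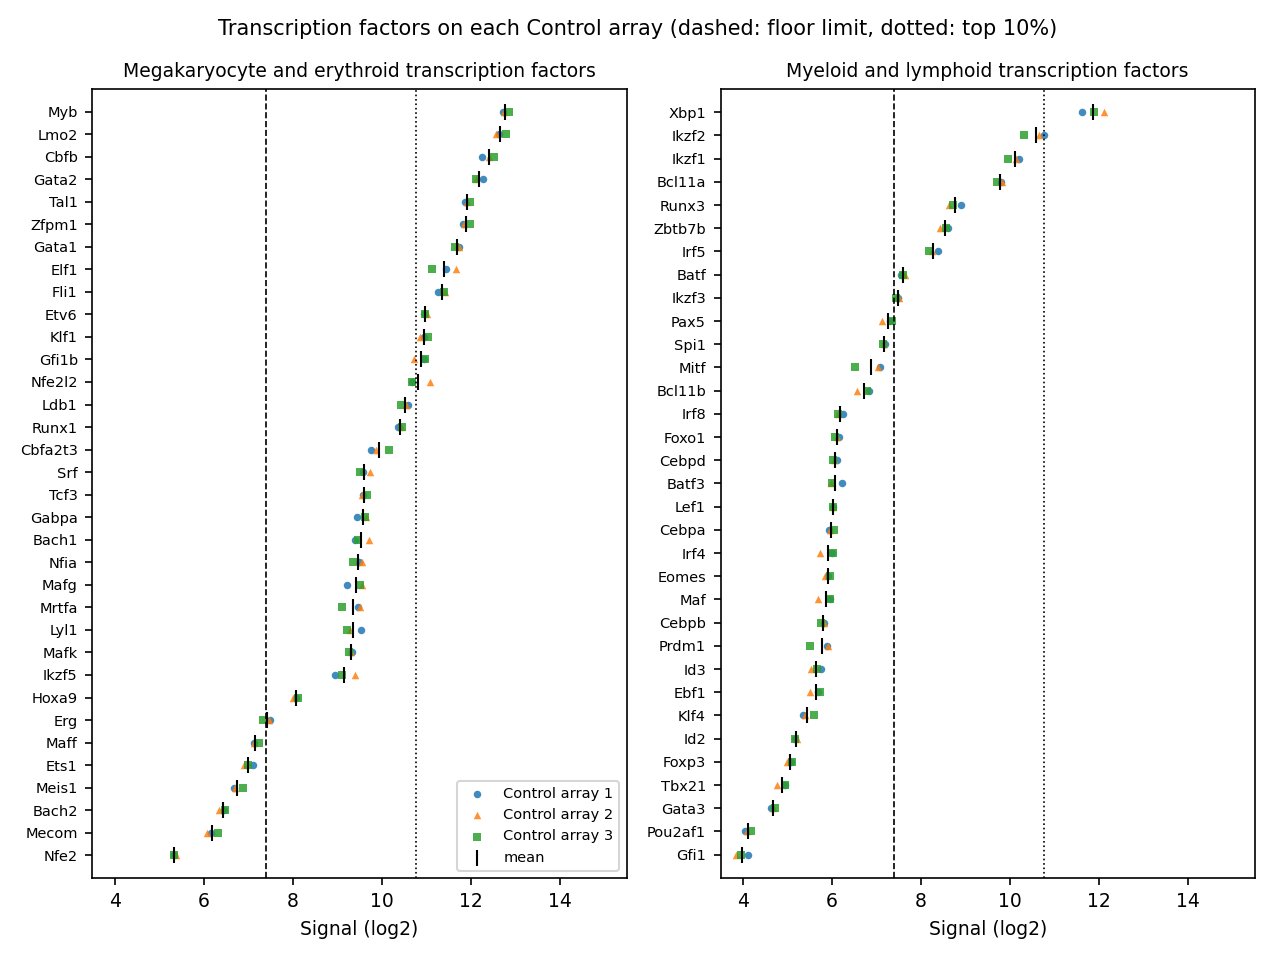
Signal (log2) on each control array for 34 megakaryocyte and erythroid transcription factor genes (left) and 33 myeloid and lymphoid ones (right), ordered by mean, with a black bar at the mean, the floor limit dashed at 7.39 and the start of the top 10% dotted at 10.77. On the left 27 genes lie above the limit, and Nfe2 is near the floor at 5.34. On the right 24 lie near the floor.

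Polycomb genes were measured as the surroundings of Rnf2. Of the PRC1 genes, 15 of 20 were above the limit (75.0%, against 48.4% of all genes). Bmi1, a partner of Ring1b in the canonical complex, had 11.89, 11.99 and 12.11, and Kdm2b, which brings a variant complex to CG-rich DNA, had 11.15 ± 0.03. Ring1, the paralogue of Rnf2, had 8.99 ± 0.10 at percentile 69.2. Among chromobox genes, which read trimethylated histone H3, Cbx2 had 9.35 ± 0.15 and Cbx7 7.86 ± 0.05. The PRC1 genes near the floor were Cbx6, Pcgf2, Scmh1 and Scml2. In PRC2, which writes that histone mark, 11 of 12 genes were above the limit (91.7%, against 48.4% of all genes). They included Eed (10.64 ± 0.07), Ezh2 (9.80 ± 0.06), Suz12 (9.64 ± 0.10) and Ezh1 (8.16 ± 0.09), and Epop was the exception at 4.16. Ezh1 and Cbx7 lay under the stricter limit of 8.32. Hox genes, well known Polycomb targets, were near the floor in 27 of 33 cases, and 12.1% were above the limit, against 48.4% of all genes. A link of these levels to Polycomb was not tested. Hoxa5 (8.47 ± 0.01), Hoxa9 (8.07 ± 0.06), Hoxa7 (7.77 ± 0.08) and Hoxc9 (7.76) were above the limit, and none was high. Only Hoxa5 passed the stricter limit, and its value came from a probe set that can bind several transcripts, the other reading 5.05.

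Among cytokine and growth factor receptors 17 of 44 were above the limit (38.6%, against 48.4% of all genes). Only 1 was high (2.27%, against 10.004%). That gene was Epor, the erythropoietin receptor, with 11.03, 10.87 and 10.81. Kit, the stem cell factor receptor, had 9.93, 10.04 and 9.71. Egfr had 9.41 ± 0.05 from 1 of 7 probe sets, and Flt3 had 8.34 ± 0.02. Csf2rb, the beta chain through which IL-3 and GM-CSF signal, had 8.46, 8.44 and 6.96. Array 3 lay below the limit and the others above, so the gene counts as at the limit. Its near-identical copy Csf2rb2 was near the floor (5.06), and probes may not tell them apart. The IL-6 signal chain Il6st (6.13), and the TGF-beta receptor chains Tgfbr1 (5.33) and Tgfbr2 (6.48), were near the floor with 3 or 4 probe sets each, beside the high Tgfb1.

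Among chemokine, toll-like and other surface receptors, 15 of 43 were above the limit (34.9%, against 48.4% of all genes). Cd47, which shields cells from phagocytes, had 13.04 ± 0.09, and the transferrin receptor Tfrc had 11.68 ± 0.27. Leukocyte integrins were unevenly represented. Itgal (11.11 ± 0.17) was high, its partner Itgb2 had 10.47, 10.72 and 9.53, and Itgam was near the floor at 5.20. Cxcr4, the receptor that holds megakaryocytes in marrow, had 9.02 ± 0.13. Ptprc, which encodes the leukocyte antigen CD45, had 4.91, 4.71 and 4.60 from the higher of 2 probe sets, below the limit. Of 8 toll-like receptor genes in the list, only Tlr9 was above the limit, at 7.81.

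The markers of other cell types were read in the same way, and in RNA from a whole culture, fewer cells of a type and less RNA per cell cannot be told apart. Of all genes 48.4% were above the limit and 10.004% were high, the shares to set beside each list count below. The erythroid list had 15 of 26 above the limit (57.7%) and 4 high. The carbonic anhydrases led it: Car2 had 13.97, 14.01 and 13.73, and Car1 had 13.44, 13.39 and 13.19. Both were in the top 1%, which began at 13.01. The heme enzyme Fech (10.44), the spectrin gene Sptb (10.19) and Ank1 (9.51) were above the limit. So were the blood group genes Ermap (10.40), Icam4 (9.58), Rhd (8.58) and Kel (7.89). Of the 9 genes near the floor, the heme synthesis gene Alas2 had 5.93 ± 0.10, the anion channel Slc4a1 6.03 ± 0.07 and the beta globin gene Hbb-b2 4.50 ± 0.10. The alpha globin genes Hba-a1 (5.38) and Hba-a2 (7.45, at the limit) are near-identical and cannot be separated by these probes with certainty. Hbb-b1 was not analysed here.

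Of the mast cell, basophil and eosinophil list, 7 of 23 were above the limit and none was high. The leading genes were proteases: Mcpt2 (10.16 ± 0.32), Cpa3 (10.35, 10.27 and 9.46) and Cma1 (9.64 ± 0.43), with array 3 low in Cpa3 and Cma1. Mcpt1, close in sequence to Mcpt2, was near the floor at 6.79. The IgE receptor chains differed, with Ms4a2 at the limit (8.69, 7.37 and 7.85) and Fcer1a near the floor (6.61, 5.59 and 5.65). In both genes array 1 was the highest. The tryptase gene Tpsb2 was near the floor at 6.71.

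Most of the genes set down as markers of neutrophils and macrophages were near the floor, with Ltf and Csf1r above the limit. In the neutrophil list 4 of 24 were above the limit: the protease Ctsg (9.99 ± 0.18), the close copies Lyz2 (9.09, 9.34 and 8.59) and Lyz1 (8.61), and Ltf (7.65). Mpo (6.26 ± 0.01), Elane (7.22), Camp (6.28) and S100a8 (5.19) were near the floor. In the monocyte and macrophage list 6 of 26 were above the limit, led by Fcgr2b (9.72 from 1 of 5 probe sets). Csf1r had 7.95 ± 0.08, Cd14 5.95 and Adgre1 5.82, and C1qa was near the floor as well. The B cell list had 1 of 18 above the limit, Cd22 at 7.62, with Cd79a and Pax5 near the floor. Ltf, Csf1r and Cd22 lay under the stricter limit of 8.32, and Lyz1 was near the floor without probe sets that can bind several transcripts.

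In the list for T and natural killer cells 4 of 22 were above the limit. Nkg7, a membrane protein of cytotoxic granules, was high, with 11.70, 11.55 and 10.98. The kinase gene Zap70 had 9.40 ± 0.15 from 1 of 3 probe sets, the others having means of 6.94 and 6.41. Cd3e had 7.77 ± 0.01 and Ubash3a 7.92 from 1 of 2 probe sets, whereas Cd3g (4.60) and Ncr1 (5.93) were near the floor. Endothelial markers gave 6 of 20 above the limit, with Icam2 (11.35 ± 0.09) high, Kdr at 7.86 and Cdh5 near the floor at 5.12. Cd3e, Ubash3a and Kdr lay under the stricter limit. Fibroblast and stromal markers gave 2 of 17, the collagen chains Col1a2 (11.50, 11.69 and 11.32) and Col5a1 (10.66), both above the limit on more than 1 probe set. The related chain Col1a1 (5.95) and the stromal genes Dcn (6.55) and Pdgfra (5.93) were near the floor. The list of epithelial, liver, muscle and nerve markers had 7 of 24 above the limit and none high. It was led by Mbp (10.35), Epcam (9.89) and Afp (9.78). Epcam read 6.33, near the floor, without probe sets that can bind several transcripts, and Mbp read 6.98, near the floor, as the mean of its 8 probe sets. In the stem and progenitor list 9 of 19 were above the limit (47.4%, close to the 48.4% of all genes). The SLAM family genes Cd48 (12.96 ± 0.04) and Slamf1 (11.34 ± 0.04) were high, and Cd34 (4.98) was near the floor. Of the sex chromosome genes, all 7 measured were near the floor: Xist, the RNA that silences an X chromosome in female cells, had 6.91, 6.94 and 6.90, and the Y chromosome genes Kdm5d and Eif2s3y had 5.51 and 4.01.

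**Figure D4:**
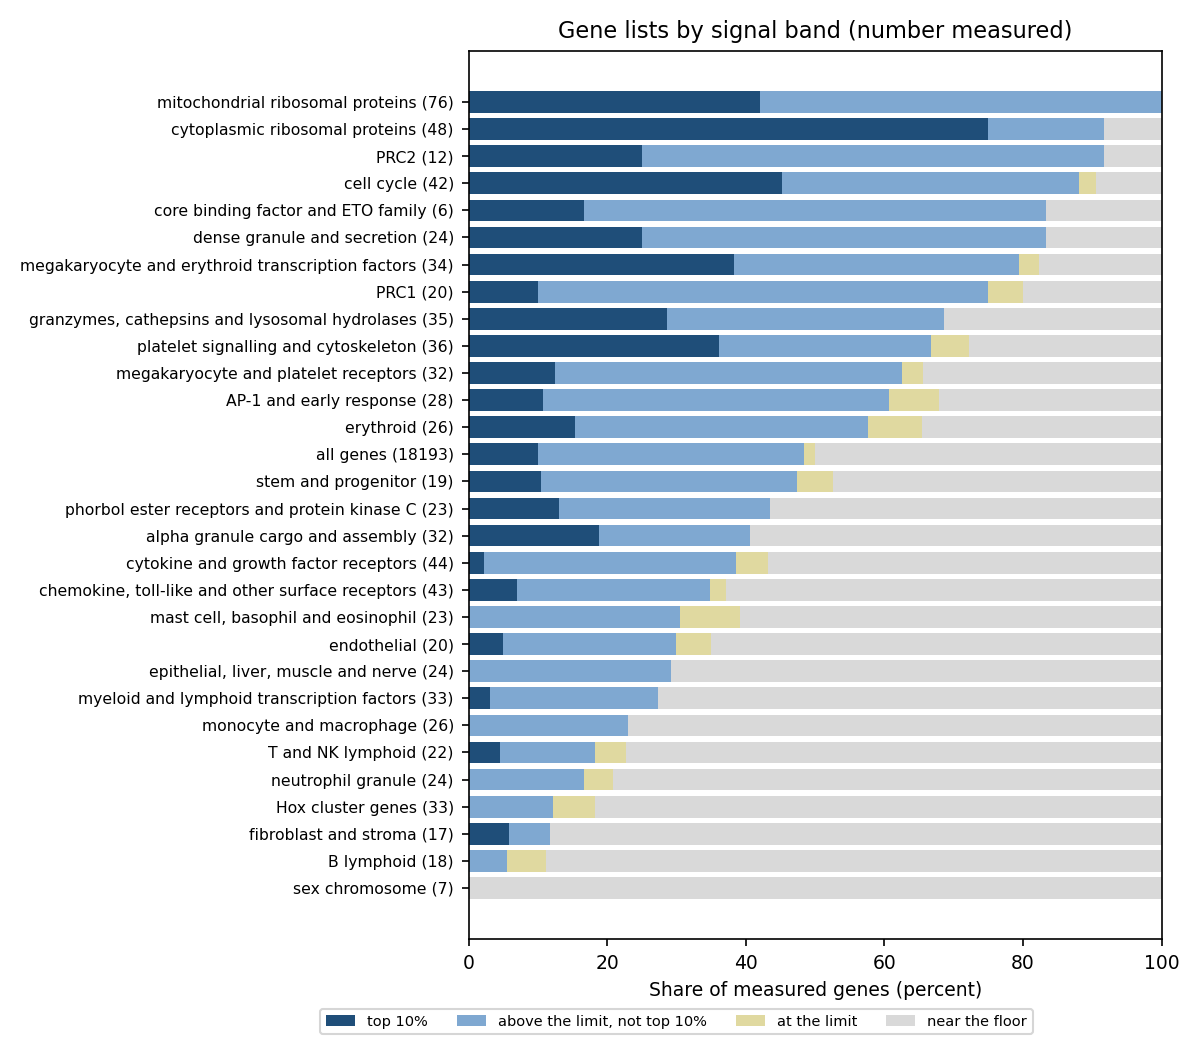
Share of the measured genes of each list (percent, horizontal axis, number measured in brackets) that were in the top 10%, above the floor limit but lower, at the limit, or near the floor, with all 18193 genes as a bar for reference. Ribosomal, PRC2, cell cycle, core binding factor, dense granule and megakaryocyte transcription factor lists lie at the top, and B lymphoid, fibroblast and Hox lists lie near the bottom with 5.56%, 11.8% and 12.1% above the limit.

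Ctse, which encodes the aspartic protease cathepsin E, had 15.09, 14.98 and 15.11 and ranked 4 among all genes. That value came from a probe set of the kind that can bind several transcripts, and the other probe set of Ctse read 7.72, just above the limit. Of the granzyme, cathepsin and lysosomal list, 24 of 35 were above the limit (68.6%) and 10 were high, among them Ctsl (12.57 ± 0.17), Hexa (12.31 ± 0.03) and Ctsb (11.76 ± 0.16). Ctss, the cathepsin of antigen presenting cells, was near the floor at 4.64. The measured granzymes were near the floor apart from Gzmb, which had 8.91, 9.43 and 7.98.

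Housekeeping genes took most of the other leading ranks. Rpl41 (15.18 ± 0.03), Actb (15.18 ± 0.04) and Eef1a1 (15.11 ± 0.03) were the top 3, and 15 of the top 20 and 33 of the top 100 genes belong to the list of cytoplasmic ribosomal proteins, which leaves out Rps3a1 (14.78), also among the top 20. All 76 measured mitochondrial ribosomal protein genes were above the limit, from Mrps16 at 12.20 to Mrps15 at 8.25. Of the cytoplasmic set 44 of 48 were above it. The exceptions were the paralogues Rps4l, Rpl3l and Rpl39l, and Rps16 (4.84), which was read by 1 probe set. The probe set of Rpl41 is of a kind that can bind several related transcripts, and without that kind Rpl41 read 6.32, near the floor.

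Genes of the dividing cell were high as a list, with 37 of 42 above the limit (88.1%) and 19 high (45.2%). The replication clamp Pcna had 13.63, 13.73 and 13.69, and the helicase subunit Mcm7 had 13.29 ± 0.05. The mitotic genes Cdc20 (12.22 ± 0.11), Mki67 (11.93 ± 0.08) and Cdk1 (11.73 ± 0.01) were high as well, and the mitotic kinase Aurkb (10.14 ± 0.09) was above the limit. Of the D cyclins, Ccnd2 (13.65 ± 0.01, all 7 probe sets above the limit) and Ccnd3 (12.68 ± 0.12) were high and Ccnd1 was near the floor (7.17). The cyclin kinase gene Cdk6 had 13.36 ± 0.02. Inhibitors were split. Cdkn2a (10.54 ± 0.08), Cdkn2c (10.51 ± 0.03) and Cdkn1b (9.92 ± 0.18) were above the limit, whereas Cdkn1a, which encodes p21, had 7.16, 7.18 and 7.24 and lay near the floor with both of its probe sets, though above the limit of 7.14 from olfactory receptors alone.

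Phorbol esters act through C1 domains, above all those of protein kinase C. Of the list of such receptors and relatives, 10 of 23 were above the limit (43.5%, against 48.4% of all genes). Among the classical isoforms Prkca was high (11.59, 11.69 and 11.57) and Prkcb near the floor (5.99 ± 0.10). The isoforms that bind phorbol ester without calcium, Prkch (10.43), Prkcd (9.73), Prkce (9.44) and Prkcq (9.42), were above the limit. The diacylglycerol kinase Dgkz was high (11.22 ± 0.07). The kinase substrates Marcks and Marcksl1 were near the floor with all of their 7 and 4 probe sets.

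Early response genes, which phorbol ester is known to induce within hours, were read after 3 days. In this list 17 of 28 were above the limit (60.7%) and 3 were high: Jund (12.25 ± 0.15), Myc (11.92 ± 0.15) and the phosphatase Dusp6 (10.90 ± 0.19). Junb had 9.64 ± 0.23, and Jun and Fosl1 were near the floor, at 6.21 and 6.83. The arrays were less alike here than in any other list, with a median SD of 0.166 against 0.0859 over all genes. Fos had 6.38, 8.58 and 7.41, a range of 2.20 that was the widest of all 18193 genes. Fosb had 5.43, 7.42 and 5.49, so array 2 alone reached the limit. Egr1 had 8.91, 10.50 and 9.94, and array 1 was the low array. Array 2 was the highest in 11 of the 17 genes above the limit (64.7%), as deposited and after quantile normalization. Over all genes above the limit the shares were 48.8% and 31.7%.

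Over all genes above the limit, 15 (0.17%) had a range of at least 1 between arrays. Array 2 was the highest in 11 of them and array 1 in 4, and array 3 was the lowest in 13. Nr4a2, an early response nuclear receptor, had 7.49, 8.87 and 7.39. The galectin gene Lgals1, the granzyme gene Gzmb and the integrin gene Itgb2, all given above, were also in this set, with Lcp1, an actin bundling protein of leukocytes (10.02, 9.83 and 8.82), and Lyz1 (8.84, 9.04 and 7.94). In these 5 genes array 3 was the lowest and arrays 1 and 2 lay closer together. Cytip, a regulator of leukocyte adhesion, had 9.12, 9.77 and 8.47, and Mxd1, an antagonist of MYC, had 8.41, 9.29 and 8.004. For all genes above the limit array 2 was the highest in 48.8% as deposited and in 31.7% after quantile normalization, while the counts for the 15 genes were the same under both. Erythroid genes ran another way: array 1 was the highest in 11 of the 15 above the limit (73.3%), against 22.6% of all genes above it. After quantile normalization array 1 was the highest in 13 of the 15 (86.7%), against 31.3%. What set the arrays apart was not tested.

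**Figure D5:**
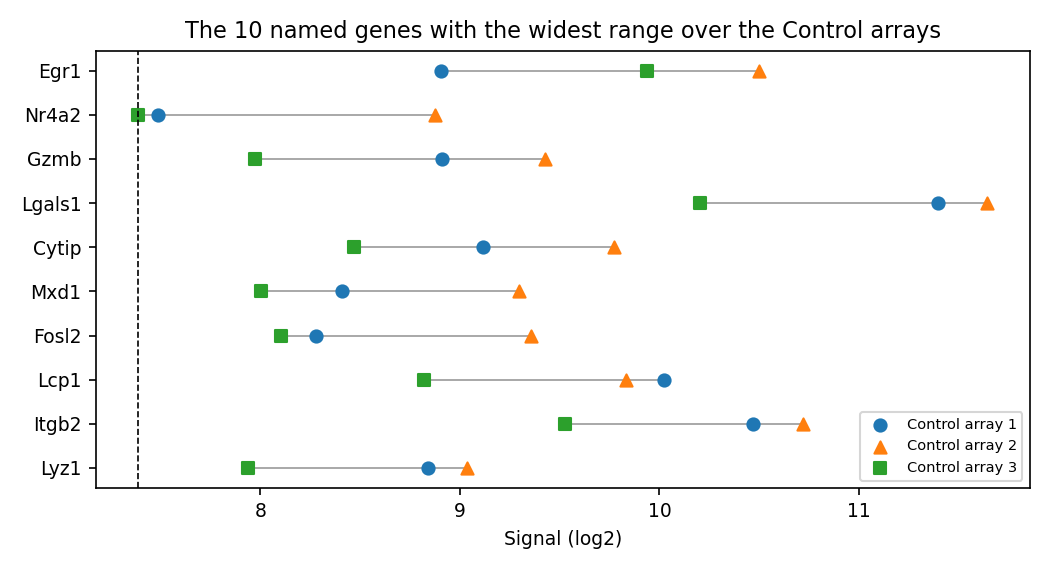
Signal (log2) on each control array for the 10 named genes above the floor limit with the widest range, joined by a grey line, with the floor limit dashed at 7.39. Array 2 (triangles) is the highest in 9 of the 10 genes, and array 3 (squares) is the lowest in all except Egr1.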

How the data were processed

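Biotin-labelled RNA of 9 L8057 cultures was hybridised to single-colour arrays of 45101 probe sets, and the 3 control arrays were used. The authors deposited log2 signals, as the range of values shows. How the authors corrected background, summarised probes and normalized is not given in the sources used here. Values were used as deposited, and the array medians were 6.58, 6.51 and 6.55. The 64 control probe sets, 932 with several gene symbols and 9160 not listed in the platform annotation were left out, which left 34945 for 18193 genes. Of these genes 18032 were found by Entrez identifier in the RefSeq table of GRCm38.p6, and 0 symbols differed. Promoter windows came from RefSeq on that build.

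No test was run, since there was 1 group. The lists held 698 symbols, of which 633 were measured. Named genes were the 7 markers, the 20 highest, list members, the 10 of widest range and the 3 on each side of the limit (below it Prune2, Dbx1 and Ifna9, above it Numbl, Kcnj3 and Fjx1, all at 7.39). Members and lists were chosen with earlier results of these data known. Scripts used Python 3.11.15, pandas 2.3.3 and numpy 2.4.6 and were tested on simulated data. Alternatives were another scaling, probe set rule or limit, and leaving out each array.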

Additional observations from a re-analysis of the deposited data

Results flagged for a closer look

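Signal was present in probe sets that no gene-based result above uses. Of the 9160 probe sets that the annotation table did not list, 953 (10.4%) were above the floor limit on all 3 control arrays, against 41.7% of the probe sets with 1 gene symbol. Of these, 172 reached the top 10% and the highest read 15.20, as high as Rpl41. They have no gene name here.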

How the results depend on the processing

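No paired analysis was possible because the description covers 1 group and its results come from no test. Quantile normalization over the 3 control arrays moved the named genes by -0.02 to 0.02, and over all 9 arrays by -0.05 to 0.04, with no named gene crossing between above the limit and near the floor. The mean of all probe sets of a gene took 53 of 801 named genes from above the limit to near the floor, among them Itgb1, Itga5, F2rl2, Gp1bb, Sparc, Fn1, Egfr and Hoxa9. Under it the genes above the limit numbered 10 for cytokine receptors, 2 for monocytes, 0 for B cells, 4 for epithelial, liver, muscle and nerve, and 2 for Hox, and the high genes numbered 2 for mast cells, 1 for neutrophils, 0 for fibroblasts and 4 for PRC1. Without probe sets that can bind several transcripts, 783 of the 801 named genes kept a value, and F2r was among those that did not. Of the 783, 8 went from above the limit to near the floor, and the high cytokine receptors numbered 2. The stricter limit of 8.32 took 52 named genes, and left above it 13 platelet receptors, 2 neutrophil, 3 monocyte, 0 B, 2 T and natural killer, 3 endothelial, 3 epithelial, liver, muscle and nerve, and 1 Hox genes. The limit of 7.14 from olfactory receptors brought 14 named genes above it and gave 2 B and 7 T and natural killer genes. Leaving out 1 array at a time took 0 named genes from above to near the floor; without array 1, Dbx1 went above the limit, and B cell genes above it ran from 1 to 2, with 2 without array 3. Arrays in this design limit precision by their number, and signals near the floor carry no order among genes.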

Other observations

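Promoters of erythroid genes often held a GATA motif (AGATAA or TGATAA, both strands), in 77.8% of 18 windows, against 12.9% of the windows of all genes on the arrays. The share was 45.8% in the mast cell list and 29.7% in the chemokine and surface receptor list. In the platelet receptor, alpha granule, dense granule and signalling lists it was 20%, 20.7%, 17.4% and 10.5%. By band the share was 16.3% near the floor, 9.75% above the limit but not high, and 9.92% in high genes. An ETS motif (CGGAAG or AGGAAG) was in 43.2%, 55.1% and 58.1% of the windows of these bands, a RUNX motif (TGTGGT or TGCGGT) in 21.3%, 21.0% and 19.8%, and a TATA box (TATAAA) in 13.03%, 6.54% and 7.11%. None of these motifs contains another, and a match is a run of letters and not a site. In the window of Pf4, AGATAA began 37 bases after the start site and an ETS match 9 bases before it.

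Of 1355 genes that RefSeq classes as long non-coding RNA, 126 (9.30%) were above the floor limit, against 52.4% of 16468 protein-coding genes. Genes on the X chromosome were above it in 41.0% of 617 cases. Among the autosomes and the X chromosome this was the lowest share, with the next lowest, chromosome 13, at 43.7%. The Y chromosome was not included in this ranking.

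Of all 45101 probe sets, 420 had an identical value on all 3 control arrays and 4963 on at least 2 of them, while 0 had an identical value on all 9 arrays. Such values on at least 2 arrays made up 14.7% of probe sets near the floor and 4.63% of those above the limit. They included Sparc, Vcam1, Cd27 and S100a8, whose SD of 0 is therefore no measure of precision. Among others, Gp9 on arrays 1 and 2, and Tln1, Gata2 and Cxcr4 on arrays 2 and 3, also had an identical value. SDs of such genes need the same care.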
